A study of Zea mays with 30 samples.

Results

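The genes described here are neighbours on maize chromosome 1, in the stretch that the study's association mapping in an F2 population tied to seed germination speed. They were taken by number, as every identifier of the deposited gene tables from Zm00001d027292 to Zm00001d027371. Of the 80 numbers, 5 were left out and 12 have no gene in these tables, so that 63 genes of the 39005 in the tables remained. All 63 are in the study's list of candidates, where 42 carry a name or a LOC identifier and 21 are given only as uncharacterized. At least 1 read was found for 61 of the 63, and 55 had more than 30 reads over all libraries. The mapping itself was not analysed here.

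A mapped locus names a stretch of chromosome, not a single gene, because neighbouring genes are inherited together in a cross. Any gene of the stretch may carry a sequence difference between the parents, in its coding part or in the DNA that sets its expression, and many do so without any part in the trait. During germination a dry seed takes up water, uses and degrades messenger RNA stored at maturation, and then makes new RNA for metabolism, cell wall loosening and the outgrowth of the radicle.

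RNA sequencing was performed on whole germinating seeds of both parents, which are maize inbred lines. Line 72-3 germinates fast and was sampled at 0 (dry seeds), 6, 12 and 24 hours after imbibition (HAI), and line F9721 germinates slowly and was sampled at the same times and at 36 and 48 HAI. Each of the 10 groups of line and time had 3 libraries, each from pooled seeds, and the labels give no treatment. In the germination test of the study's methods, seeds were sterilized with hydrogen peroxide and rinsed with water. They were then kept on wet filter paper at a constant temperature with light and dark periods. The replicates of the germination test came from different ears, but no label ties a replicate number to an ear, so p-values measure only the spread between these libraries. Each line is a single inbred genotype, so a difference between the lines cannot be tied to a locus by expression alone. Reads of both lines were aligned to the B73 reference genome. In the study's alignment summary, every F9721 library had a lower mapping rate than every 72-3 library. A line difference in read recovery and one in RNA level cannot be told apart here. In whole seeds, fewer cells of a type and less RNA per cell cannot be told apart.

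Each library held between 8080968 and 14192708 reads counted on genes, with a median of 10887437.5. Libraries of 1 group were alike, with a correlation of at least 0.977 in 7 of the groups, and the lowest was 0.917 between replicates 1 and 3 of 72-3 at 24 HAI. In replicate 3 of F9721 at 36 HAI, 11 of 52 members lay more than 2-fold below both other replicates, and in replicate 3 at 48 HAI 10 of 53 did. These were 21.2% and 18.9% of the members, beside 9.92% and 9.05% of all genes, and 9 members were low in both libraries. Values of single libraries are CPM, reads of a gene per 1000000 reads on genes after TMM scaling. Differences are log2 fold changes with their standard errors from edgeR's quasi-likelihood test over all 30 libraries, and a gene passed at a Benjamini-Hochberg adjusted p of at most 0.01 over the 34746 genes with a read.

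The members covered a wide range of levels, which were compared on the deposited TPM scale, which takes gene length into account. The uncharacterized gene Zm00001d027323 was the most abundant, with 98.5 TPM in the lowest library, a median of 274.5 TPM and 754.6 TPM in the highest. A gene named only as membrane protein (Zm00001d027355) followed with a median of 132.6 TPM, beta tubulin1 (Zm00001d027295) with 109.2 TPM and retinol dehydrogenase 12 (Zm00001d027353) with 107.5 TPM. Zm00001d027338 ranked among these 5 by its mean of 121.7 TPM, but its libraries spread between 3.21 and 456.2 TPM. At the other end, the F-box gene Zm00001d027306 and the protein phosphatase gene Zm00001d027360 had no read, and 6 further members had at most 30 reads in all. Among these 6 were the drug transporter PDR2 (Zm00001d027303) with 1 read and the chloroplast movement gene WEB1 (Zm00001d027322) with 3.

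Between the lines, 17 members passed in dry seeds (27.9% of 61, beside 28.2% of all genes) and 15 at 6 HAI (24.6%, beside 28.2%). At 24 HAI 25 members passed (41%, beside 41.8%), of which 10 were higher and 15 lower in 72-3, beside 21.5% and 20.3% of all genes. At 12 HAI 15 members passed (24.6%, beside 31.2%), but 4 of the 5 genes left out were chosen in the study for their line difference at 12 HAI, so nothing is read from this count (19 with the 5 counted). The share of members that differed between the lines was thus close to that of all genes at 0 and 24 HAI. It was also close to that of the genes beside the run at 24 HAI, where 41.5% of 41 tested genes with lower numbers and 47.4% of 57 with higher numbers passed. The sets differ in read depth. A mean count of at least 10 was reached by 52 of the 61 members, and by 21920 of all 34746 genes, which is a smaller share. Shares at like depth were not compared.

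In direction, 9 members were higher and 8 lower in 72-3 in dry seeds (beside 14.5% and 13.7% of all genes), 7 and 8 at 6 HAI (14.1% and 14.2%), and 6 and 9 at 12 HAI (15.8% and 15.5%). The split depended on the scaling: with limma on log2(TPM + 0.5) it was 7 higher and 2 lower at 6 HAI, 17 and 3 at 12 HAI, and 19 and 9 at 24 HAI. On that scale the median log2 difference of all well expressed genes shifted upwards by 0.185, 0.52 and 0.38 at these times. Line differences of 4-fold or more in either direction (2 on the log2 scale) that passed were found for 2 members at 0 HAI, 1 at 6 HAI and 8 at 24 HAI. These were 3.28%, 1.64% and 13.1% of the members, beside 11.2%, 11.4% and 18.1% of all genes. Of the 5 genes left out, 1, 2 and 1 had such a difference at these times, and 3, 3 and 4 passed. Leaving them out thus lowered the counts at these times too. At 12 HAI no member had one (beside 13.3%), from which nothing is read either, since 4 of the 5 genes left out were chosen for that contrast.

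**Figure D1:**
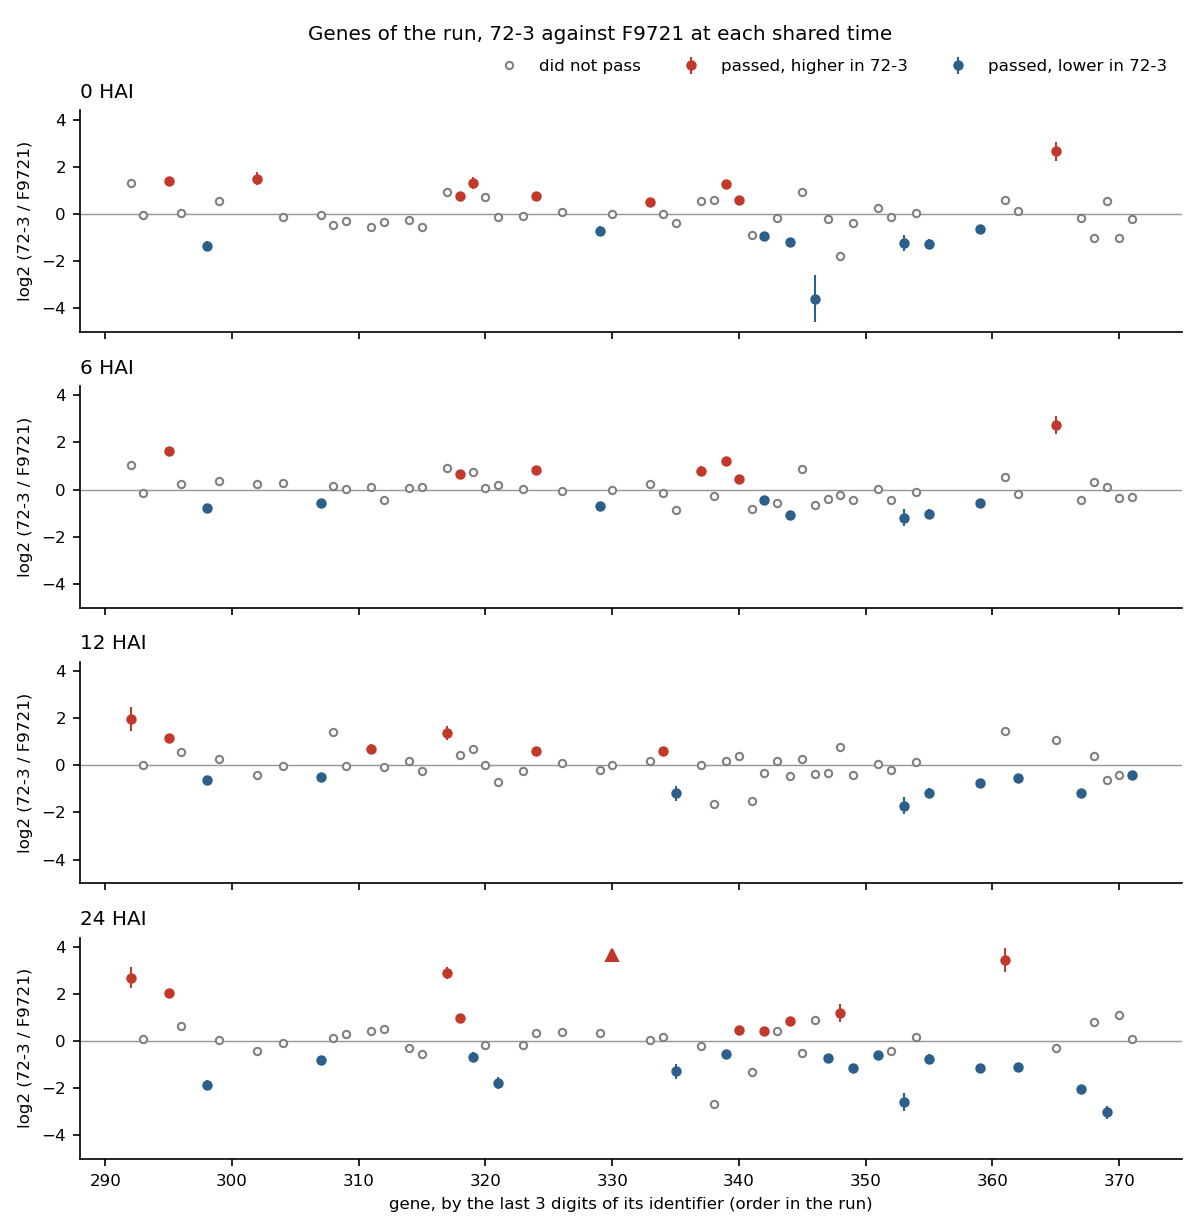
Line difference of the 55 members with more than 30 reads, in the order of their identifiers (x axis, last 3 digits), at 0, 6, 12 and 24 HAI (panels). The y axis is log2 of 72-3 over F9721, bars on the points that passed are standard errors, red points passed as higher in 72-3, blue points passed as lower, and open grey points did not pass. The triangle at 24 HAI is the lower bound for Zm00001d027330. Genes of both directions lie side by side along the run, and 10 red and 15 blue genes stand at 24 HAI.

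Beta tubulin1 was the single member that was higher in 72-3 at all 4 shared times. Lower in 72-3 at all 4 times were Zm00001d027298, retinol dehydrogenase 12, the membrane protein gene Zm00001d027355 and Zm00001d027359, of which the first 3 had calls at some times that were lost in fits without 1 library. Dry seeds and seeds at 6 HAI shared 13 members with the same direction (76.5% and 86.7% of the members called at each time, beside 79% and 78.9% over all genes). Dry seeds and seeds at 24 HAI shared 7 with the same direction (41.2% and 28%, beside 55.6% and 37.5% over all genes). A further 4 had opposite directions, which was 23.5% of the members called in dry seeds, beside 9% over all genes. At 24 HAI the calls of 4-phosphopantetheinyl transferase sfp, the RNA binding protein gene and Zm00001d027342 were lost in some fits without 1 library. On the TPM scale sfp (−0.32) and the RNA binding protein gene (−0.12) did not pass at 24 HAI. Only the molybdate-anion transporter gene kept its calls at both times in all these checks. The share over all genes was not limited in this way.

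Beta tubulin1 encodes a subunit of microtubules, which guide cell division and cellulose deposition. In dry seeds it had 107, 116 and 127 CPM in 72-3, against 44.2, 40.7 and 49.0 CPM in F9721. By 24 HAI the values were 164, 231 and 353 CPM in 72-3, against 55.0, 59.9 and 66.7 CPM in F9721. The libraries of the lines did not overlap at any shared time. The log2 difference was 1.38 ± 0.18 in dry seeds (adjusted p = 1.72e-07), 1.63 ± 0.18 at 6 HAI, 1.16 ± 0.17 at 12 HAI and 2.04 ± 0.18 at 24 HAI (adjusted p = 5.25e-11). Against dry seeds, beta tubulin1 rose by 1.10 ± 0.17 in 72-3 at 24 HAI, and by 1.44 ± 0.18 in F9721 at 48 HAI, where it had 103, 118 and 143 CPM. The change from dry seeds to 24 HAI differed between the lines by 0.66, which did not pass (adjusted p = 0.0414).

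The other 5 members of the cytoskeleton and cell wall are cingulin, kinesin-like protein KIN-14E, early nodulin-like protein 1, xyloglucan endotransglucosylase/hydrolase protein 5 and vegetative cell wall protein gp1. Of the 6, 3 rose and none fell in 72-3 at 24 HAI (beside 26.1% and 20.9% of all genes). In F9721 at 48 HAI 3 rose and none fell (beside 25.1% and 20.9%). No median is given, since gp1 had too few reads for a fold change. In the same comparisons, the 61 members had 23 higher and 13 lower in 72-3, and 22 higher and 14 lower in F9721.

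Early nodulin-like protein 1 (Zm00001d027346), which is related to the arabinogalactan proteins of the cell surface, had almost no reads in dry 72-3 seeds. Its libraries had 0.398, 0.392 and 0.128 CPM in dry 72-3 seeds, against 3.84, 4.14 and 3.47 CPM in dry F9721 seeds. With 7 reads against 101, the level was 12.5-fold lower in 72-3 (95% counting interval 5.84 to 31.8, which covers counting error only). The difference passed in edgeR (adjusted p = 0.00403), but in only 2 of the 6 fits that left out 1 library, where its log2 value lay between −3.82 and −3.23. Seeds at 24 HAI had 33.6, 40.6 and 22.1 CPM in 72-3, against 14.1, 19.3 and 17.9 CPM in F9721. That difference of 0.91 did not pass (adjusted p = 0.131). Within 72-3 the rise to 1364 reads at 24 HAI, against 7 reads in dry seeds, was 104-fold (95% counting interval 50.3 to 259), and the change to 24 HAI was larger in 72-3 by 4.50 ± 1.10 (adjusted p = 0.00206). Without replicate 3 of dry 72-3 seeds that value was 4.14 and no longer passed (adjusted p = 0.0103, and at most that in the other 11 such fits).

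The enzyme encoded by xyloglucan endotransglucosylase/hydrolase protein 5 (Zm00001d027368) cuts and rejoins xyloglucan in the cell wall. It had 5.08, 7.62 and 4.0 CPM in 72-3 at 24 HAI, against 0.398, 0.261 and 0.385 CPM in dry 72-3 seeds. With 234 reads at 24 HAI against 8 in dry seeds, the rise was 15.6-fold (95% counting interval 7.79 to 36.6). In F9721 at 48 HAI it had 8.55, 8.36 and 3.73 CPM, against 1.08, 0.118 and 0.919 CPM in dry seeds (log2 change 3.25 ± 0.50, adjusted p = 1.57e-06). It therefore rose in both lines, without overlap with dry seeds. Cingulin (Zm00001d027307), named after a junction protein of animals, was lower in 72-3 at 24 HAI with 39.6, 36.0 and 43.1 CPM, against 81.8, 63.3 and 63.7 CPM in F9721 (−0.81 ± 0.14, adjusted p = 9.83e-06). On log2(TPM + 0.5) that difference was −0.38 and did not pass.

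**Figure D2:**
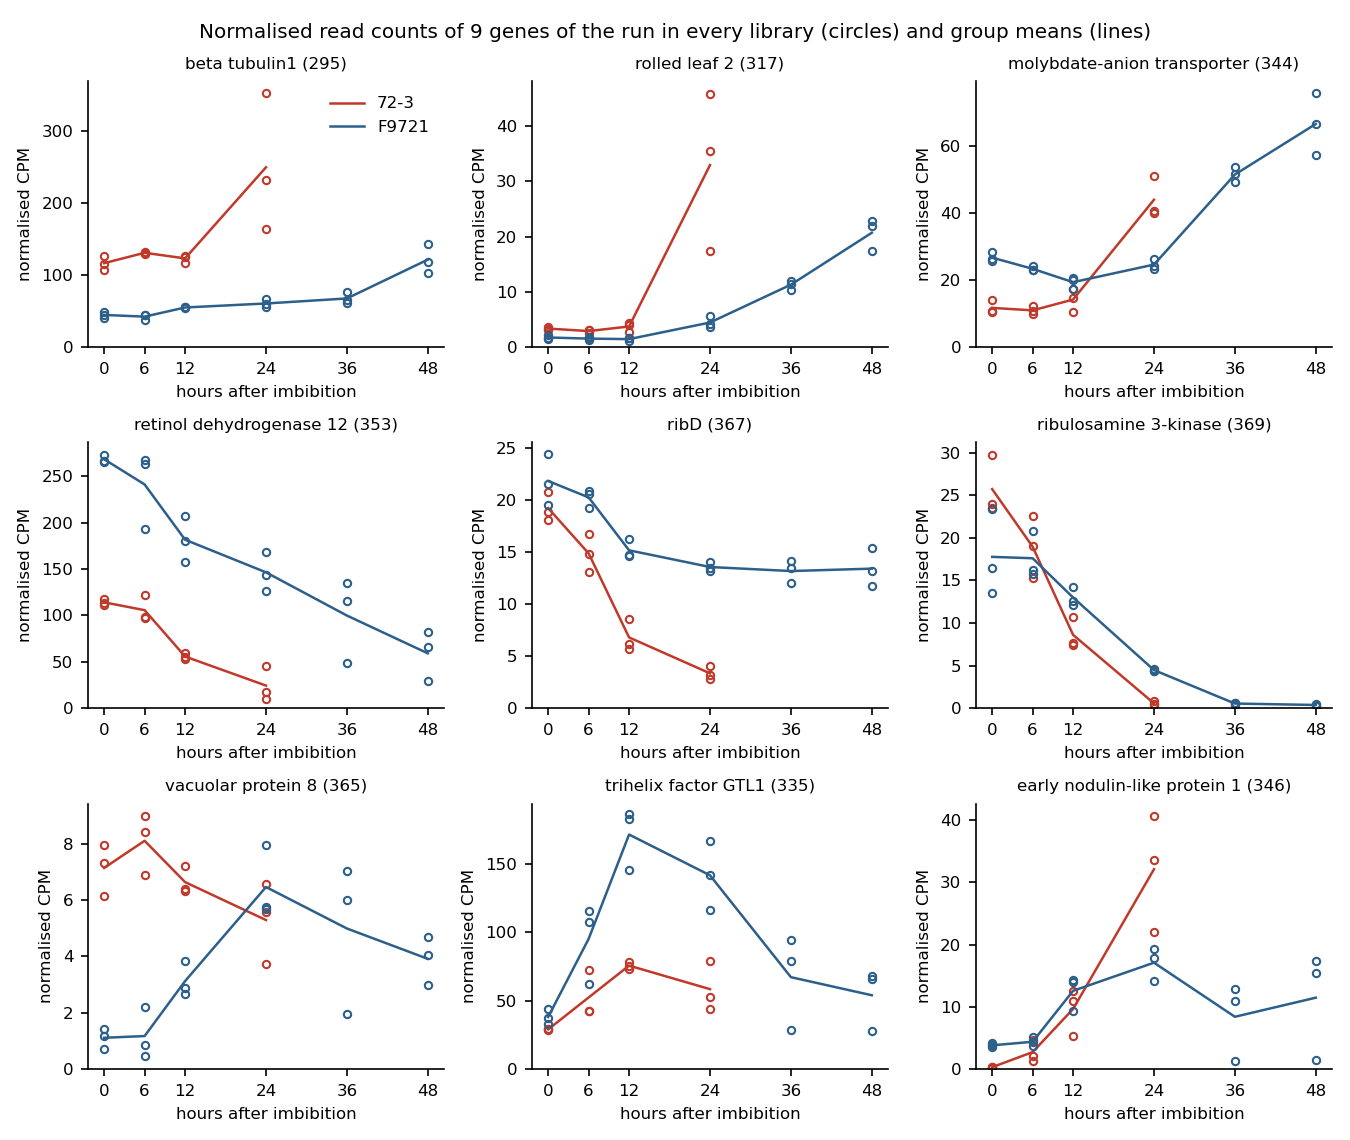
CPM of 9 members (y axes) by hours after imbibition (x axis). Circles are single libraries, lines join the means of 3 libraries, and 72-3 is red and F9721 blue. Beta tubulin1 is higher in 72-3 at every shared time, ribD and the ribulosamine kinase gene decline faster in 72-3, and vacuolar protein 8 is high in dry 72-3 seeds and rises in F9721.

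Among the 7 genes of transcription, chromatin and RNA, 2 were higher and 2 lower in 72-3 at 24 HAI (beside 21.5% and 20.3% of all genes). Rolled leaf 2 (Zm00001d027317) had 17.5, 35.6 and 45.9 CPM in 72-3 at 24 HAI, against 4.18, 3.55 and 5.61 CPM in F9721. The libraries did not overlap, and the log2 difference was 2.88 ± 0.26 (adjusted p = 7.71e-11). It was 1.37 ± 0.30 at 12 HAI (adjusted p = 0.000469), when both lines were still low, with 4.44, 4.02 and 2.74 CPM in 72-3 and 1.58, 1.72 and 1.02 CPM in F9721. F9721 had 11.5, 10.4 and 12.0 CPM at 36 HAI and 22.0, 17.4 and 22.8 CPM at 48 HAI. The rise over dry seeds was 3.29 ± 0.27 in 72-3 at 24 HAI and 3.57 ± 0.29 in F9721 at 48 HAI, and the difference of 0.67 ± 0.23 between 72-3 at 24 HAI and F9721 at 48 HAI did not pass (adjusted p = 0.0201).

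Scarecrow-like protein 6 (Zm00001d027292) belongs to the GRAS family of transcription factors. At 24 HAI it had 8.24, 15.8 and 10.7 CPM in 72-3, against 1.92, 1.61 and 1.82 CPM in F9721, without overlap (2.69 ± 0.44, adjusted p = 6.42e-06). In F9721 it had 3.33, 4.87 and 0.497 CPM at 48 HAI, so that replicate 3, 1 of the libraries that stood apart, was as low as dry seeds. Its rise over dry seeds there was 1.68 ± 0.53 (adjusted p = 0.00766). It passed in 1 of the 6 fits that left out 1 library, and was 1.06 without replicate 2, when it did not pass (adjusted p = 0.121, the highest of these fits). The line difference at 12 HAI was 1.98 ± 0.50 (adjusted p = 0.00176), and it did not pass without replicate 2 of 72-3 (1.79) or replicate 2 of F9721 (1.66).

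Trihelix transcription factor GTL1 (Zm00001d027335), named after an Arabidopsis regulator of cell growth, was lower in 72-3 at 12 and 24 HAI. It was not called between the lines at 0 or 6 HAI. The difference at 12 HAI (−1.18) did not pass in some fits without 1 library, nor on log2(TPM + 0.5), where it was −0.62. In F9721 it had 183, 186 and 145 CPM at 12 HAI, against 44, 37.2 and 33 CPM in dry seeds (2.17 ± 0.33, adjusted p = 6.39e-06). In 72-3 it had 73.5, 78.2 and 75.2 CPM at 12 HAI, against 29.2, 29.2 and 28.6 CPM in dry seeds (1.38 ± 0.32, adjusted p = 0.00104). GTL1 thus rose in both lines, and in F9721 was not called against dry seeds at 36 or 48 HAI. At 24 HAI it was lower in 72-3 than in F9721 by 1.28 ± 0.31 (adjusted p = 0.00101). On log2(TPM + 0.5) GTL1 was lower there by 0.88, which did not pass. It was already 1.32 ± 0.32 above dry seeds in F9721 at 6 HAI (adjusted p = 0.00842), but passed there in 1 of 6 fits that left out 1 library, with values between 1.16 and 1.55.

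THO complex subunit 1 (Zm00001d027324) belongs to the complex that couples transcription to mRNA export. It had 84.8, 81.3 and 85.7 CPM in dry 72-3 seeds, against 50.6, 47.9 and 51.2 CPM in F9721, a difference of 0.75 ± 0.13 (adjusted p = 2.08e-05). It stayed higher in 72-3 at 6 HAI (0.84 ± 0.13) and 12 HAI (0.63 ± 0.13), and was not called at 24 HAI. The gene named RNA binding protein (Zm00001d027339) had 13.3, 13.6 and 15.1 CPM in dry 72-3 seeds, against 6.24, 5.55 and 5.62 CPM in F9721 (1.27 ± 0.16, adjusted p = 9.78e-08). The gene was lower in 72-3 at 24 HAI, with 11, 10.1 and 10.4 CPM, against 12.9, 16.6 and 16.8 CPM in F9721. On CPM the order of the lines had turned without overlap at either time (−0.56 ± 0.14, adjusted p = 0.00162). This second difference did not pass without replicate 2 (−0.50) or replicate 3 (−0.49) of F9721, nor on log2(TPM + 0.5), where it was −0.12, so that the turn depended on the scaling.

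Zmet3 (Zm00001d027329), a DNA cytosine methyltransferase, had 30.8, 32.0 and 27.0 CPM in dry 72-3 seeds, against 47.0, 50.1 and 49.7 CPM in F9721 (−0.71 ± 0.18, adjusted p = 0.00252). This difference did not pass without replicate 3 of dry 72-3 seeds (−0.64), nor on log2(TPM + 0.5), where it was −0.53. In F9721 Zmet3 fell by 1.05 on the log2 scale at 48 HAI (adjusted p = 1.11e-05), and in 72-3 no time was called. On log2(TPM + 0.5) the change in F9721 at 48 HAI was −0.34 and did not pass. The gene for subunit 12 of Mediator (Zm00001d027299), which links transcription factors to RNA polymerase, fell by 1.33 on the log2 scale in 72-3 at 24 HAI and by 0.87 in F9721 at 24 HAI, and was not called between the lines.

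Of the 5 metabolic enzymes, 4 were lower in 72-3 at 24 HAI and none was higher (beside 20.3% and 21.5% of all genes), with a median log2 difference of −2.01. These 4 are retinol dehydrogenase 12, riboflavin biosynthesis protein ribD, a protein-ribulosamine 3-kinase and the 4-phosphopantetheinyl transferase sfp, which act in unrelated pathways. The fifth, pyridoxine/pyridoxamine 5'-phosphate oxidase 2 (Zm00001d027352) of vitamin B6 metabolism, was called in no comparison. In dry seeds, 1 of the 5 was higher and 1 lower.

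Riboflavin biosynthesis protein ribD (Zm00001d027367) acts in the making of vitamin B2. In dry seeds its levels overlapped, with 20.7, 18.8 and 18.1 CPM in 72-3 and 21.5, 19.5 and 24.4 CPM in F9721 (−0.18, adjusted p = 0.397). At 12 HAI it had 5.68, 6.15 and 8.51 CPM in 72-3, against 14.6, 16.2 and 14.7 CPM in F9721. By 24 HAI ribD had 3.22, 2.79 and 4.0 CPM in 72-3, against 13.2, 13.4 and 14.0 CPM in F9721. The difference was −1.17 ± 0.16 at 12 HAI and −2.01 ± 0.17 at 24 HAI (adjusted p = 2.30e-11), without overlap. F9721 did not reach the low level of 72-3 in the times sampled: 72-3 at 24 HAI was 2.0 ± 0.17 lower on the log2 scale than F9721 at 48 HAI (adjusted p = 4.57e-11).

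The gene for a protein-ribulosamine 3-kinase of chloroplasts (Zm00001d027369), an enzyme that helps to remove sugars bound to proteins, lost almost all of its RNA in both lines. In dry seeds it had 29.7, 23.5 and 24.0 CPM in 72-3, and 16.4, 23.4 and 13.5 CPM in F9721, a difference of 0.54 that did not pass (adjusted p = 0.0328). In 72-3 it had 0.372, 0.819 and 0.475 CPM at 24 HAI, a fall of 5.55 on the log2 scale (SE 0.27, adjusted p = 1.09e-16). In F9721 it had 4.36, 4.65 and 4.40 CPM at 24 HAI, 0.404, 0.60 and 0.593 CPM at 36 HAI and 0.360, 0.487 and 0.249 CPM at 48 HAI. The fall at 48 HAI was 5.56 on the log2 scale (adjusted p = 6.10e-16). The values of F9721 at 36 and 48 HAI overlapped those of 72-3 at 24 HAI, and at 24 HAI the line difference was −3.03 ± 0.29 (adjusted p = 3.93e-10).

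Retinol dehydrogenase 12 (Zm00001d027353) is named after a dehydrogenase of animals. In dry seeds it had 113, 118 and 111 CPM in 72-3, against 266, 266 and 273 CPM in F9721, without overlap. The difference of −1.24 ± 0.35 passed (adjusted p = 0.00546), but in none of the 6 fits that left out 1 library, with values between −1.26 and −1.22. Values at 24 HAI were 45.5, 17.4 and 9.97 CPM in 72-3, against 127, 169 and 144 CPM in F9721. That difference was −2.59 ± 0.37 (adjusted p = 6.75e-07), and −3.43 without replicate 1 of 72-3, the library highest in this gene. The gene fell in both lines, by 2.23 on the log2 scale in 72-3 at 24 HAI (3.07 without replicate 1) and by 2.18 in F9721 at 48 HAI.

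The transferase named 4-phosphopantetheinyl transferase sfp (Zm00001d027319) attaches a cofactor arm to carrier proteins. It had 9.69, 8.36 and 9.23 CPM in dry 72-3 seeds, against 3.60, 3.90 and 3.37 CPM in F9721 (1.33 ± 0.26, adjusted p = 0.000113). Seeds of 24 HAI had 22.3, 13.2 and 8.82 CPM in 72-3, against 24.1, 23.5 and 23.1 CPM in F9721 (−0.67 ± 0.21, adjusted p = 0.00885). On CPM the order of the lines turned, but the difference at 24 HAI passed in 1 of 6 fits that left out 1 library, and was −0.32 and did not pass on log2(TPM + 0.5). In F9721 the gene rose by 2.70 ± 0.25 at 24 HAI and 3.36 ± 0.25 at 36 HAI over dry seeds.

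Among the 5 genes of transport and membranes, vacuolar protein 8 (Zm00001d027365), named after a yeast protein of the vacuole membrane, had 7.30, 7.96 and 6.15 CPM in dry 72-3 seeds. In dry F9721 seeds it had 0.720, 1.18 and 1.43 CPM. The difference of 2.66 ± 0.41 (adjusted p = 4.44e-06) was the largest called difference of the members in dry seeds in favour of 72-3. It was 2.73 ± 0.40 at 6 HAI, and 3.56 without replicate 3 of F9721, which had the most of its group. At 24 HAI the lines overlapped, with 6.57, 5.57 and 3.73 CPM in 72-3 and 5.75, 7.95 and 5.69 CPM in F9721 (−0.29, adjusted p = 0.495). F9721 thus reached the level of 72-3 by a rise of 2.51 ± 0.41 over its dry seeds (adjusted p = 6.04e-06).

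The molybdate-anion transporter gene (Zm00001d027344) supplies the cell with molybdate, which some oxidoreductases need in their cofactor. In dry seeds it had 10.4, 10.7 and 14.1 CPM in 72-3, against 26.3, 25.6 and 28.3 CPM in F9721 (−1.19 ± 0.16, adjusted p = 4.56e-07). By 24 HAI the transporter gene had 40.1, 40.8 and 51.3 CPM in 72-3, against 23.3, 26.5 and 24.3 CPM in F9721 (0.84 ± 0.15, adjusted p = 2.01e-05). The order of the lines turned without overlap at either time. In F9721 it rose later and had 66.7, 57.4 and 76.1 CPM at 48 HAI, and 72-3 at 24 HAI was 0.60 ± 0.15 lower on the log2 scale than that (adjusted p = 0.00137; 0.49 lower and not passing without replicate 3 of F9721 at 48 HAI).

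The membrane protein gene Zm00001d027355 had 53.5, 57.7 and 61 CPM in dry 72-3 seeds, against 135, 129 and 148 CPM in F9721. It was lower in 72-3 by 1.26, 1.02, 1.16 and 0.75 on the log2 scale at 0, 6, 12 and 24 HAI, and at 24 HAI did not pass without replicate 3 of 72-3 (0.57 lower) or replicate 2 of F9721 (0.70 lower). The difference at 24 HAI was −0.36 on log2(TPM + 0.5) and did not pass there. ATPase 9 (Zm00001d027304), a proton pump of the plasma membrane, was under 1 CPM in dry seeds of both lines and was not called between the lines at any shared time. It rose by 1.90 ± 0.48 in 72-3 at 24 HAI (2.73 without replicate 3 of dry seeds, and not passing without replicate 1, at 1.62, or replicate 2, at 1.61, of dry 72-3 seeds) and by 3.17 ± 0.43 in F9721 at 48 HAI (3.95 without replicate 3 of dry seeds). PDR2 had too few reads to be described.

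Of the 8 genes of protein targeting, folding, turnover and signalling, 6 had reads, and 1 was higher and 1 lower in 72-3 at 24 HAI (beside 21.5% and 20.3% of all genes). ATPP2-A13 (Zm00001d027361), of the family of phloem protein 2, had 1.80, 8.19 and 7.53 CPM in 72-3 at 24 HAI, against 0.610, 0.338 and 0.607 CPM in F9721. Its difference of 3.45 ± 0.51 (adjusted p = 1.17e-06) was without overlap, and replicate 1 of 72-3 was the lowest of its group. The peptidyl-prolyl isomerase gene (Zm00001d027321), of a family that helps proteins to fold, had 2.29, 1.88 and 2.17 CPM in 72-3 at 24 HAI, against 6.27, 9.38 and 6.45 CPM in F9721 (−1.79 ± 0.25, adjusted p = 4.74e-07). In F9721 it had 2.58, 3.45 and 3.22 CPM at 36 HAI, where it was not called against dry seeds. Signal recognition particle receptor homolog 1 (Zm00001d027293), which brings ribosomes to the endoplasmic reticulum, was called in neither direction between the lines, and fell by 0.51 on the log2 scale in 72-3 at 24 HAI and by 0.59 in F9721 at 48 HAI.

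Of the 6 genes of organelles, 1 was lower in 72-3 at 24 HAI and none was higher (beside 20.3% and 21.5% of all genes). The pentatricopeptide repeat gene (Zm00001d027349), of a family that processes RNA in mitochondria and chloroplasts, was lower in 72-3 at 24 HAI by 1.15 on the log2 scale (SE 0.17, adjusted p = 9.66e-07). The gene for TIM23-2 (Zm00001d027345), a channel subunit for protein import into mitochondria, was called in no comparison. It had 54.2, 35.5 and 17.6 CPM in 72-3 at 24 HAI, and 41.5, 59.9 and 52.1 CPM in F9721, so that the lines overlapped. A gene for an OXA1-like protein (Zm00001d027354), which inserts proteins into the mitochondrial inner membrane, rose by 0.47 ± 0.13 in 72-3 at 24 HAI and by 0.62 ± 0.13 in F9721 at 48 HAI. The rise in 72-3 passed in 3 of 6 fits that left out 1 library, with values between 0.34 and 0.59. Chloroplast movement gene WEB1 had too few reads to be described.

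The 5 other named genes include Zm00001d027298, which the study lists as uncharacterized with a LOC identifier. In dry seeds it had 12.9, 9.66 and 10.5 CPM in 72-3, against 29.2, 21.8 and 33.8 CPM in F9721 (−1.36 ± 0.20, adjusted p = 1.27e-06). At 24 HAI it had 6.94, 5.41 and 3.87 CPM in 72-3, against 20.6, 17.8 and 20.6 CPM in F9721 (−1.86 ± 0.20, adjusted p = 3.32e-09). The lines did not overlap at either time. The DUF3527 domain gene (Zm00001d027296) was not called between the lines, and rose by 2.10 ± 0.29 in 72-3 at 24 HAI and by 2.51 ± 0.29 in F9721 at 48 HAI. Of the neighbouring pair named ATP binding protein, Zm00001d027340 was higher in 72-3 by 0.60 ± 0.14 in dry seeds. If the pair are close copies, reads may have been divided between them, and their separate values are uncertain.

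Of the 21 uncharacterized members, 4 were higher and 4 lower in 72-3 at 24 HAI (beside 21.5% and 20.3% of all genes). Zm00001d027330 had no read in any dry seed and none in F9721 at 24 HAI, and had 10, 20 and 14 reads in 72-3 at 24 HAI. Against a limit of 3 reads over the group it was at least 12.4-fold higher in 72-3 (edgeR adjusted p = 0.000343). With DESeq2 it did not pass (adjusted p = 0.513, the highest among its other settings). In F9721 it appeared at 48 HAI, with 11, 11 and 28 reads. The most abundant gene, Zm00001d027323, was not called between the lines at any shared time, with adjusted p between 0.529 and 1.0. It had 119, 135 and 77.3 CPM in 72-3 at 24 HAI and 109, 148 and 120 CPM in F9721, and rose in both lines.

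Zm00001d027342 had 24.2, 22.2 and 27.4 CPM in dry 72-3 seeds, against 45.0, 46.6 and 48.2 CPM in F9721 (−0.92 ± 0.14, adjusted p = 2.63e-06). At 24 HAI it had 81.2, 107 and 101 CPM in 72-3, and 60.3, 82.3 and 72.3 CPM in F9721. These overlapped, although the difference of 0.43 ± 0.13 passed (adjusted p = 0.00717), in 2 of 6 fits that left out 1 library. Zm00001d027359 had 98.8, 107 and 93.9 CPM in dry 72-3 seeds, against 148, 145 and 175 CPM in F9721, and was lower in 72-3 by 0.65 in dry seeds and 1.12 at 24 HAI on the log2 scale, and it fell with time in both lines.

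Zm00001d027302 had 13.1, 11.5 and 13.2 CPM in dry 72-3 seeds, against 4.44, 5.44 and 3.58 CPM in F9721 (1.5 ± 0.28, adjusted p = 6.97e-05). At 12 HAI it had 26.4, 17.4 and 29.5 CPM in 72-3, against 32.5, 32.7 and 30.9 CPM in F9721, and the lines were not called different. It was 1 of only 2 members that passed at 6 HAI against dry seeds, both of them in F9721. Its rise there was 1.43 ± 0.28 (adjusted p = 0.000819), and 1.28 without replicate 3 of dry F9721 seeds, when it did not pass (adjusted p = 0.0152, the highest of the fits that left out 1 library).

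Zm00001d027318 had 61.2, 85.9 and 85.3 CPM in 72-3 at 24 HAI, against 36.6, 44.9 and 37.1 CPM in F9721, without overlap (0.97 ± 0.16, adjusted p = 7.96e-06), and was also higher in 72-3 in dry seeds (0.75 ± 0.17). Zm00001d027362 was lower in 72-3 at 24 HAI by 1.10 on the log2 scale, and fell in both lines with time. Zm00001d027309 rose by 0.91 in 72-3 at 24 HAI and by 0.88 in F9721 at 48 HAI. Zm00001d027311 rose by 1.01 in 72-3 at 12 HAI and dropped by 0.90 in F9721 at 48 HAI. The RING finger gene Zm00001d027312, of a family that tags proteins for degradation, dropped by 0.87 in F9721 at 48 HAI. On log2(TPM + 0.5) the changes of both genes at 48 HAI were −0.17 and −0.13 and did not pass. The chaperonin gene Zm00001d027371 fell by 0.52 in F9721 at 48 HAI, and Zm00001d027333 by 0.55 in 72-3 at 24 HAI, both with the direction turned on the TPM scale. Differences of Zm00001d027333 (higher in dry 72-3 seeds), Zm00001d027334 (higher in 72-3 at 12 HAI), Zm00001d027315 (up in 72-3 at 12 HAI) and Zm00001d027341 (up in F9721 at 24 HAI) also passed, but in no more than 3 of 6 fits that left out 1 library. The CemA-like gene Zm00001d027320 and Zm00001d027326 were called in no comparison, and gp1 (Zm00001d027310), Zm00001d027305, Zm00001d027350 and Zm00001d027363 had too few reads to be described.

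**Figure D3:**
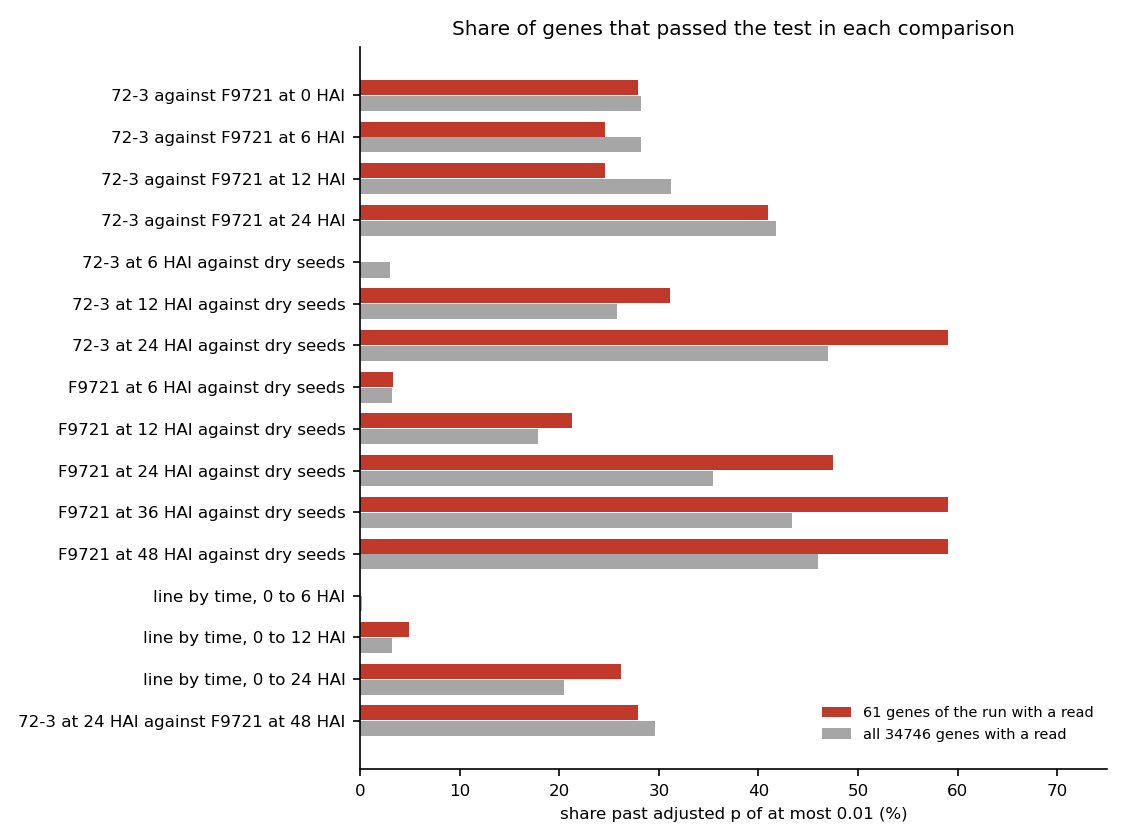
Percentage of genes that passed in each of the 16 comparisons (x axis), for the 61 members with reads (red bars) and for all 34746 genes with reads (grey bars). Between the lines the members stand at 27.9% in dry seeds and 41% at 24 HAI, beside 28.2% and 41.8% of all genes. Nothing is read from the bars at 12 HAI, because genes chosen for that contrast were left out. Some of the genes left out also passed at the other shared times, which lowers those red bars. For 72-3 at 24 HAI against dry seeds they stand at 59%, beside 47%.

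Against dry seeds, no member passed in edgeR in 72-3 at 6 HAI (beside 2.99% of all genes), where 16 had an unadjusted p under 0.05 and DESeq2 called 1. In 72-3, 19 members passed at 12 HAI (31.1%, beside 25.8% of all genes) and 36 at 24 HAI (59%, beside 47%). In F9721, 2 passed at 6 HAI (3.28%, beside 3.21%), 13 at 12 HAI (21.3%, beside 17.9%) and 29 at 24 HAI (47.5%, beside 35.4%). At 36 and 48 HAI 36 passed each (59%, beside 43.4% and 46%). Without replicate 3 of F9721, which stood apart in several members, 32 passed at 36 HAI and 37 at 48 HAI, and without replicate 1 of 72-3 at 24 HAI 34 passed there. At 12 HAI 11 passed in 72-3 without its replicate 1 and 7 in F9721 without replicate 3 of dry seeds. Without that dry library none passed in F9721 at 6 HAI, and without replicate 1 of dry F9721 seeds 28 passed at 36 HAI. Here too the members and all genes differed in read depth, and shares at like depth were not compared.

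From 12 HAI on, more members rose than fell in each comparison except 72-3 at 12 HAI. In 72-3, 9 members rose and 10 fell at 12 HAI (beside 14.3% and 11.5% of all genes), and 23 rose and 13 fell at 24 HAI (26.1% and 20.9%). In F9721, 9 rose and 4 fell at 12 HAI (beside 11.5% and 6.45%), and 20 rose and 9 fell at 24 HAI (19.9% and 15.6%). At 36 HAI 23 rose and 13 fell there (23.4% and 20%), and at 48 HAI 22 rose and 14 fell (25.1% and 20.9%). On log2(TPM + 0.5) the splits were 13 higher and 2 lower at 12 HAI and 32 and 6 at 24 HAI in 72-3. In F9721 they were 8 and 2, 25 and 1, 30 and 2, and 32 and 5 on that scale, and with DESeq2's size factors F9721 had 7 higher and 6 lower at 12 HAI. The median log2 change of all well expressed genes was shifted upwards on the TPM scale by 0.33 and 0.57 in 72-3 at 12 and 24 HAI, and by 0.35, 0.70 and 0.66 in F9721 at 24, 36 and 48 HAI, so that the smaller falls depended on the scaling.

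**Figure D4:**
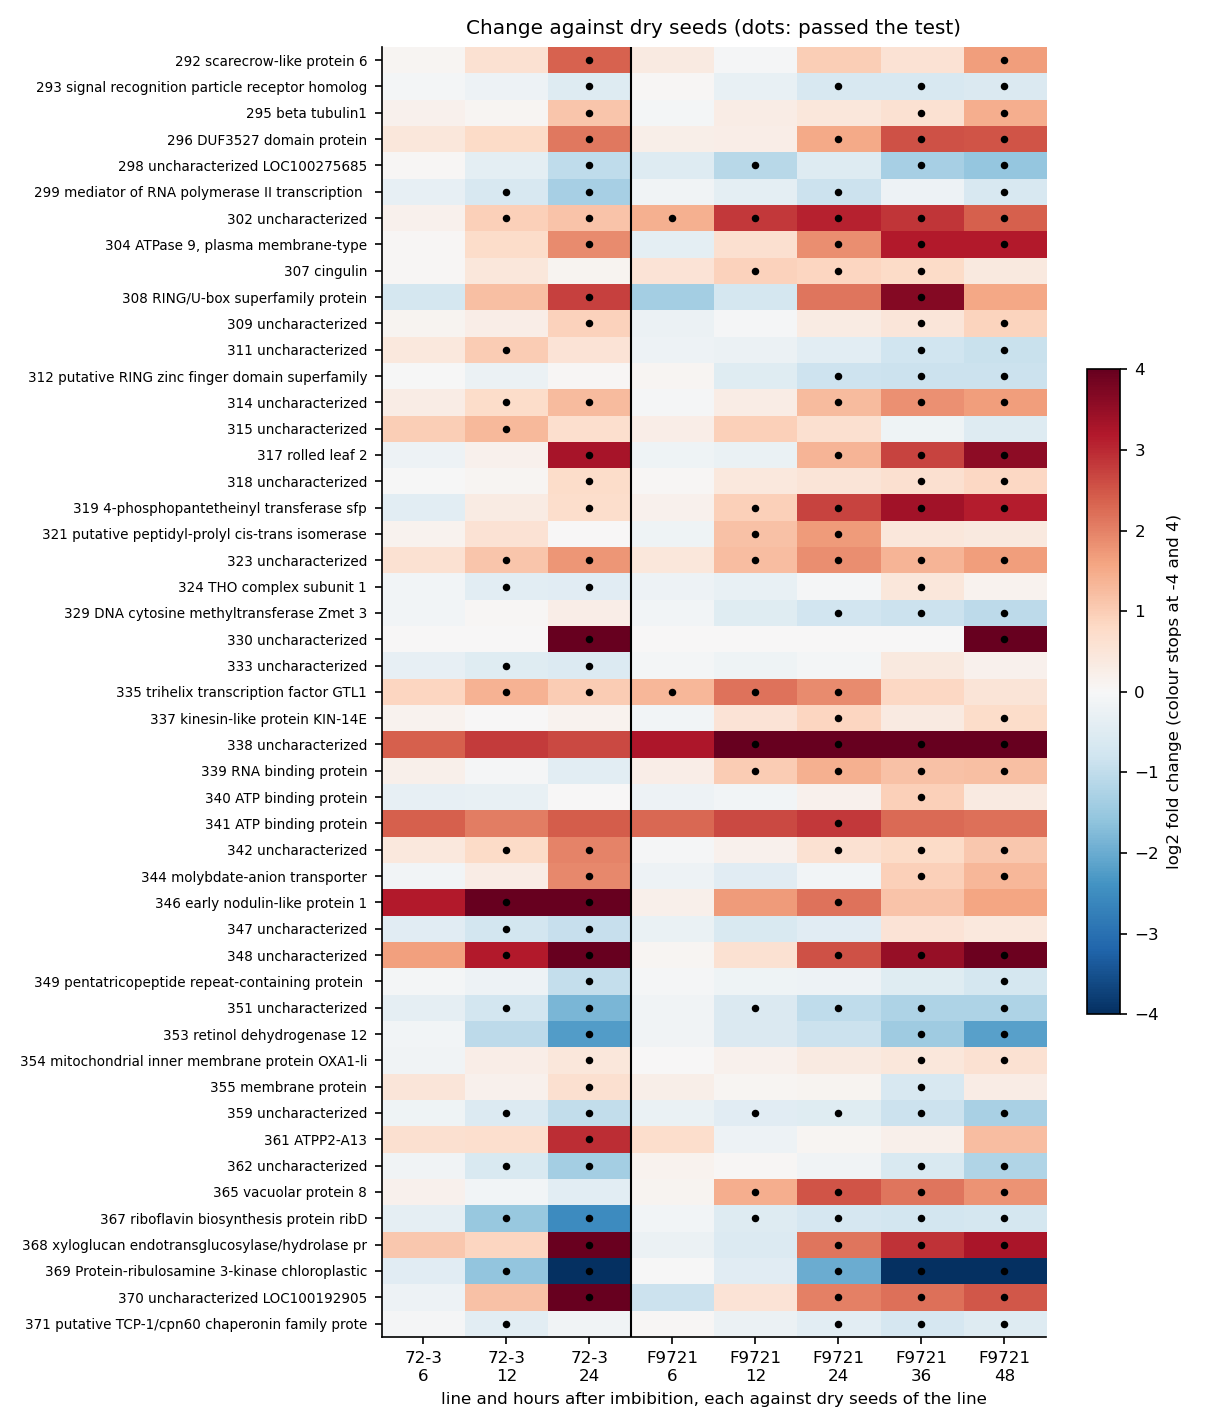
Log2 change against dry seeds (colour, which ends at −4 and 4) of the 49 members that passed in at least 1 of the 8 comparisons with dry seeds, in the order of their identifiers. Columns are 72-3 at 6, 12 and 24 HAI and F9721 at 6 to 48 HAI, and dots mark changes that passed. Zm00001d027330 had no reads in dry seeds, so its colour is a fitted value. The columns of 72-3 at 24 HAI and of F9721 at 36 and 48 HAI carry the most dots, 36 each.

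At the last time sampled in each line, 72-3 at 24 HAI and F9721 at 48 HAI, 18 members rose in both lines and 10 fell in both, and none changed in opposite directions. These 28 were 77.8% of the members called in each line, beside 70.1% and 71.5% over all genes, 8 members were called only in 72-3, and 8 only in F9721. Zm00001d027348 had 26.1, 28.6 and 24.8 CPM in 72-3 at 24 HAI, against 0.531, 0.522 and 0.641 CPM in dry 72-3 seeds (5.52 ± 0.57, adjusted p = 8.46e-10). In F9721 at 48 HAI it had 36.1, 45.1 and 9.20 CPM, against 2.40, 2.13 and 1.43 CPM in dry seeds (3.93 ± 0.46, adjusted p = 1.39e-08). Both rises were without overlap, and the low value at 48 HAI was again replicate 3.

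Zm00001d027370 rose in 72-3 at 24 HAI to 74 reads, against 2 reads in dry seeds, a ratio of 19.7 with a 95% counting interval of 5.28 to 166. In F9721 at 48 HAI it had 1.35, 1.38 and 0.580 CPM, against 0.360, 0 and 0.204 CPM in dry seeds (2.48 ± 0.58, and 3.21 without replicate 1 of dry seeds). Zm00001d027351 fell by 1.82 on the log2 scale in 72-3 at 24 HAI (adjusted p = 8.92e-11) and by 1.24 in F9721 at 48 HAI. Zm00001d027314 had 74.9, 60.1 and 43.1 CPM in 72-3 at 24 HAI, against 23.2, 24.4 and 27.0 CPM in dry seeds, and 107, 105 and 105 CPM in F9721 at 36 HAI, against 31.6, 28.8 and 29.6 CPM in dry seeds. It rose in both lines, by 1.25 ± 0.16 and 1.81 ± 0.16, without overlap with dry seeds.

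Zm00001d027338 varied widely between replicates. At 12 HAI it had 27.5, 8.69 and 30.6 CPM in 72-3, against 90.1, 56.1 and 62.4 CPM in F9721, and at 24 HAI 56.7, 1.56 and 1.15 CPM in 72-3, against 99.8, 133 and 151 CPM in F9721. The lines did not overlap at either time, but the differences of −1.64 ± 0.87 at 12 HAI (adjusted p = 0.138) and −2.67 ± 0.89 at 24 HAI (adjusted p = 0.0125) did not pass. In F9721 it had 86.3, 113 and 7.96 CPM at 36 HAI and 71.3, 78.2 and 6.22 CPM at 48 HAI, and its dry seeds had 2.04, 3.19 and 1.33 CPM. It rose in F9721 by 5.88 ± 1.14 at 24 HAI (adjusted p = 7.50e-05), and was not called in 72-3 at any time.

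Setting each line's last sampled time against the other, 17 members passed between 72-3 at 24 HAI and F9721 at 48 HAI (27.9%, beside 29.6% of all genes), of which 7 were higher and 10 lower in 72-3 (16% and 13.5% of all genes). Only 11 passed without replicate 1 of F9721 at 48 HAI, and 2 when the fit held these 6 libraries alone. Beta tubulin1 was higher by 1.04 ± 0.17 (adjusted p = 1.25e-05), with 164, 231 and 353 CPM in 72-3, against 103, 118 and 143 CPM in F9721. Scarecrow-like protein 6 was higher by 1.99 ± 0.42 (2.6 without replicate 2 of F9721) and ATPP2-A13 by 2.29 ± 0.46 (2.98 without replicate 3 of F9721). Lower in 72-3 were ribD, the membrane protein gene Zm00001d027355 by 0.94, retinol dehydrogenase 12 by 1.28 (2.12 without replicate 1 of 72-3) and Zm00001d027347 by 1.59 on the log2 scale. The value of retinol dehydrogenase 12 passed in 2 of 6 fits that left out 1 library, and not without replicate 2 (1.09 lower) or replicate 3 (0.90 lower) of 72-3 nor without replicate 1 or replicate 2 (0.96 lower) of F9721.

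The change from dry seeds differed between the lines for 3 members at 12 HAI (4.92%, beside 3.2% of all genes) and for 16 at 24 HAI (26.2%, beside 20.5%). At 6 HAI it differed for none in edgeR (beside 0.147% of all genes), where 5 had an unadjusted p under 0.05 and DESeq2 called none. At 24 HAI the change in 72-3 was the more positive for 6 members and the more negative for 10 (beside 8.93% and 11.6% of all genes), and on log2(TPM + 0.5) for 12 and 8. The molybdate-anion transporter (2.03 ± 0.22, adjusted p = 2.28e-08) and rolled leaf 2 (1.93 ± 0.42, adjusted p = 0.000586) were among the 6. Protein-ribulosamine 3-kinase (−3.56 ± 0.35, adjusted p = 5.11e-09), vacuolar protein 8 (−2.94 ± 0.53), the RNA binding protein gene (−1.82 ± 0.21) and ribD (−1.83 ± 0.23) were among the 10. Of the 5 metabolic enzymes 3 were among the 10, and of the 6 organelle genes none differed.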

How the data were processed

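RNA sequencing of whole germinating seeds was analysed in 30 libraries, 12 of 72-3 and 18 of F9721, grouped by the line, time and replicate of their labels. Per the submitters' notes and the methods, the authors used fastp for trimming, HISAT2 for alignment to B73 RefGen_v4 and HTSeq for counting. HTSeq ran in union mode, which sets aside reads that overlap several genes. Versions and the strand setting are not given in the sources used here. The deposited counts are these raw reads per gene. The deposited TPM values, computed by the authors in R, sum to 1000000 per library. Tallies that name no gene stayed out of library sizes and tests: 5.59% to 20.9% of reads lay outside genes and 1.60% to 2.11% were ambiguous.

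Differences were tested with edgeR 4.0.16 under R 4.3.3: TMM scaling, 10 group means over all 30 libraries, the quasi-likelihood F test and Benjamini-Hochberg adjustment over 34746 genes. A gene passed at an adjusted p of at most 0.01. Standard errors were taken from the estimate and its F statistic. The steps were tested on simulated counts. Alternatives were DESeq2 1.42.0, DESeq2's size factors, edgeR's filter on low counts, a block for the replicate number, a fit of only the groups compared, limma 3.58.1 on log2(TPM + 0.5), stricter thresholds, and leaving out each library in turn. A limit of 3 counts over a group stood for a count of 0.

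Genes were named with values when they were among the 5 with the highest mean TPM, among up to 3 per direction with the smallest p in a comparison, when they differed between the lines by 2 or more on the log2 scale, or when every library of 1 line had at most 3 counts and the other line more. Further members were named to account for their role group. The members, role groups and lists were chosen with earlier results of these data known. Names came from the study's gene list. Only 4 of these were looked up in RefSeq's gene table (NAM 5.0 assembly), and all 4 were found, on chromosome 1 and in the same order. Its coordinates were not used, since the assembly differs, and no sequence was read. Cell type markers were not checked, since the tables pair no identifier with a name.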

Additional observations from a re-analysis of the deposited data

Results flagged for a closer look

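The values here are the members whose change from dry seeds differed between the lines in edgeR's quasi-likelihood test, each as the log2 change in 72-3 minus that in F9721. At 12 HAI these were Zm00001d027302 (−1.89), the RNA binding protein gene Zm00001d027339 (−1.06) and ribD (−0.99). All 3 changes were the more negative in 72-3. The value of ribD passed in 4 of 12 fits that left out 1 library.

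At 24 HAI the change was the more positive in 72-3 for early nodulin-like protein 1 (4.50), Zm00001d027348 (2.97), the molybdate-anion transporter gene (2.03), rolled leaf 2 (1.93), Zm00001d027342 (1.35) and Zmet3 (1.06). For Zmet3, 72-3 had 55.3, 28.2 and 25.3 CPM at 24 HAI and 30.8, 32.0 and 27.0 CPM in dry seeds, so that replicate 1 at 24 HAI was alone above its dry seeds. F9721 had 29.6, 27.1 and 28.9 CPM at 24 HAI, against 47.0, 50.1 and 49.7 CPM in dry seeds. The value of Zm00001d027348 passed in 6 of 12 fits that left out 1 library.

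It was the more negative in 72-3 at 24 HAI for protein-ribulosamine 3-kinase (−3.56), vacuolar protein 8 (−2.94), 4-phosphopantetheinyl transferase sfp (−2.0), Zm00001d027302 (−1.93), ribD (−1.83) and the RNA binding protein gene (−1.82). The same held for the peptidyl-prolyl isomerase gene Zm00001d027321 (−1.67), Zm00001d027362 (−1.20), Zm00001d027351 (−0.82) and cingulin (−0.76). The value of cingulin passed in 8 of 12 fits that left out 1 library, and that of Zm00001d027351 in 4 of 12.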

How the results depend on the processing

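Libraries with the same replicate number were mostly little alike in their deviations. Of 39 pairs compared, 6 had a correlation over 0.1, with a range of −0.0886 to 0.343 and a median of 0.0408. F9721 at 36 HAI was not paired with F9721 at 48 HAI in this check, and replicate 3 stood apart at both times. Whether libraries with the same number share a source was not tested. With the replicate number as a block, the line comparisons at the shared times gave 17, 15, 13 and 26 members. Over all comparisons members had 279 passed results, and 272 kept their call under the block. Of the 279, 266 kept it in DESeq2, 267 with its size factors, 273 with the filter on low counts, 234 in fits of only the groups compared, and 203 on log2(TPM + 0.5). In the fits without 1 library, 1470 of 1788 passed. The direction reversed only on the TPM scale, in 15 results, none of which passed there. These were the log2 differences between the lines at 12 HAI of Zm00001d027307 (0.031), Zm00001d027362 (0.0080) and Zm00001d027371 (0.13). In 72-3 at 24 HAI they were those of Zm00001d027293 (0.12), Zm00001d027324 (0.17) and Zm00001d027333 (0.072). In F9721 at 36 HAI they were Zm00001d027293 (0.11), Zm00001d027355 (0.052), Zm00001d027362 (0.14), Zm00001d027367 (0.025) and Zm00001d027371 (0.094), and at 48 HAI Zm00001d027293 (0.12), Zm00001d027299 (0.060), Zm00001d027367 (0.0051) and Zm00001d027371 (0.19). The cause was not tested for single genes, but that scale raised the median of all genes as given above.

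With a log2 fold change of at least 2 in addition, the counts were 2, 1, 0 and 8 between the lines at their shared times, 2 and 13 in 72-3 at 12 and 24 HAI, 0, 3, 9, 12 and 12 in F9721 at 6 to 48 HAI, 0 and 5 for the line by time differences at 12 and 24 HAI, and 1 between the last sampled times. At an adjusted p of at most 0.001 they were 7, 7 and 16 between the lines at 6, 12 and 24 HAI, 8 in 72-3 at 12 HAI, 1 and 6 in F9721 at 6 and 12 HAI, 0 and 10 for line by time, and 8 between the last times. On log2(TPM + 0.5) they were 9 between the lines at 6 HAI, 1 in F9721 at 6 HAI and 5 for line by time at 12 HAI. In fits of only the groups compared they were 4 in 72-3 at 6 HAI, 5 and 23 in F9721 at 6 and 12 HAI, 1 and 14 for line by time at 6 and 12 HAI, and 2 between the last times. DESeq2 called 1 member in 72-3 at 6 HAI, its size factors left 1 in F9721 at 6 HAI, and the filter gave 5 for line by time at 12 HAI.

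Without 1 library, the counts lay between 13 and 15, 10 and 12, 9 and 11, and 18 and 26 between the lines at their shared times in order, the 9 without replicate 1 of F9721. They were 0 in every fit, 11 to 14 and 30 to 34 in 72-3 at 6, 12 and 24 HAI, and 0 to 2, 7 to 10, 24 to 26, 28 to 35 and 33 to 37 in F9721 at 6 to 48 HAI. For line by time they were 0 in every fit, 2 to 5 (5 without replicate 3 of 72-3 at 12 HAI) and 13 to 20, and 11 to 18 between the last times. In 72-3 at 12 HAI 12 passed without replicate 3 of dry seeds. Counts limit the members under 1 CPM, where a few reads set the value.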

Other observations

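Some members outside the comparisons above are given as values. The fertility restorer gene Zm00001d027343, of the organelle group, had 2.97, 3.85 and 4.68 CPM in 72-3 at 24 HAI, against 2.70, 1.3 and 1.91 CPM in F9721 at 48 HAI, and passed there alone (0.96 ± 0.29, adjusted p = 0.00761). Kinesin-like protein KIN-14E (Zm00001d027337), a motor that moves along microtubules, had 7.56, 8.13 and 7.94 CPM in 72-3 at 6 HAI, against 4.65, 4.83 and 4.30 CPM in F9721. The lines did not overlap, and the difference of 0.78 ± 0.22 passed in edgeR's quasi-likelihood test (adjusted p = 0.00534), but in none of the 6 fits that left out 1 library. The RING/U-box gene Zm00001d027308, of the ubiquitin ligases, had 41 reads in 72-3 at 24 HAI, against 3 in dry seeds, a ratio of 7.29 with a 95% counting interval of 2.33 to 36.8. Its change passed at 2.74, and not without replicate 3 of 72-3 at 24 HAI (2.08).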
